A study of Danio rerio with 6 samples.

Results

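Arrestin domain genes and the related txnip genes were followed in whole zebrafish embryos exposed to a perfluorinated sulfonamide. The set held 7 of the 24462 genes in the table. The ARRDC3 pair, ENSDARG00000036028 and ENSDARG00000052690, was chosen by the difference in its normalized counts between FBSA and control libraries. The other members were taken by symbol: arrdc1a (ENSDARG00000068148), ARRDC1 (ENSDARG00000079839), ARRDC2 (ENSDARG00000020761) and the TXNIP pair, ENSDARG00000036107 and ENSDARG00000070000. The entry arrdc4 was not matched and was not analysed here. ARRDC3, ARRDC1 and TXNIP stand in capitals without a paralogue letter, so which identifier is the a or the b copy was not settled.

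The FBSA group was held in 47 µM perfluorobutane sulfonamide (FBSA) from 8 h after fertilization, and the control group in the solvent alone. All embryos were of the wild-type line Tropical 5D, lost their chorion at 4 h, carried 0.5% methanol and were collected at 48 h. There were 3 libraries a group, made from the 3′ ends of transcripts, and each library held the RNA of 10 pooled embryos. The labels do not say whether different clutches supplied the pools, so errors measure the spread between pools.

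The members belong to the alpha-arrestins. These adaptor proteins carry an arrestin-like fold and, in mammals, recruit ubiquitin ligases of the NEDD4 family to membrane proteins, which are then taken into the cell. TXNIP also binds thioredoxin and lowers glucose uptake by acting on glucose transporters, and its gene is a known target of the sugar-sensing factors MondoA and ChREBP.

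Libraries held 23906021 to 33356411 reads in genes, with 20293 to 21367 genes detected in each. Levels are given as normalized counts, which are reads divided by 1 size factor per library, and differences as log2 fold changes on the log2(normalized count + 1) scale with their standard error (SE). Of the 7 members, 6 reached 10 normalized counts in 3 libraries or more and entered the fit over 16890 genes. Markers of skeletal muscle, neurons, skin, red blood cells, lens and heart had reads in every library for each gene matched, and 2 of 3 liver markers did. The muscle marker mylpfa and the red blood cell marker hbbe1.1 were not matched. Summed muscle markers ran from 218901 to 253420 normalized counts in FBSA libraries and from 277539 to 293362 in controls, with 2 of 5 genes past the threshold, both lower. Summed neuron markers were at 37423 to 41249 and 46190 to 48776, with 1 of 6 genes past the threshold, lower. Heart markers were at 2385 to 2604 and 1404 to 1777, with 1 of 3 past the threshold, higher. Summed skin, red blood cell and lens markers overlapped between the groups, and no gene of these lists passed. Liver markers were at 106776 to 121643 in FBSA libraries and 99188 to 102538 in controls, also with 0 of 3 past the threshold. The part of tissue make-up in the values below was not tested, and in pooled embryos fewer cells of a type and less RNA per cell cannot be told apart.

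Both ARRDC3 genes were higher with FBSA, each FBSA library lying above each control. ENSDARG00000036028 had 1145, 2130 and 960 normalized counts in FBSA libraries 1, 2 and 3, against 522, 306 and 344 in the controls. The lowest FBSA library lay above the highest control, and FBSA replicate 2 stood well above the other FBSA libraries. The means were 1412 ± 629 and 391 ± 115 normalized counts (SD, n = 3 each), a log2 fold change of 1.80 ± 0.27 SE or 3.49-fold. ENSDARG00000052690 had 1556, 2823 and 1307 normalized counts with FBSA and 900, 645 and 751 in controls. Here too the groups were apart, with FBSA replicate 2 the highest library and control replicate 2 the lowest. The means were 1895 ± 813 and 765 ± 128 normalized counts (SD, n = 3 each), a log2 fold change of 1.24 ± 0.23 SE or 2.36-fold. Since this response is why the pair was chosen, these values are a description and carry no test.

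ARRDC2, another alpha-arrestin gene, followed the direction of the ARRDC3 pair. It had 182, 297 and 149 normalized counts with FBSA, against 127, 54.6 and 108 in controls. All FBSA libraries were above all controls, although FBSA replicate 3 and control replicate 1 lay close together. The log2 fold change was 1.13 ± 0.34 SE, 2.19-fold.

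The arrdc1 genes had low counts and no separation between the groups. In human cells ARRDC1 drives the budding of small vesicles from the cell surface with the ESCRT protein TSG101. The gene arrdc1a had 64.1, 96.7 and 70.1 normalized counts with FBSA and 73.8, 26.1 and 67.0 in controls, with a log2 fold change of 0.57 ± 0.40 SE. The groups overlapped, and the difference of the means came from the high FBSA replicate 2 and the low control replicate 2. ARRDC1 had 6 reads in FBSA replicate 2 and 0 in the other 5 libraries, so it was not tested. A count of 0 allows an expected count of up to 3 reads, a limit that covers counting error only. The 6 reads seen carry counting error too, so no difference between libraries is read from them.

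The TXNIP genes had mean differences of opposite sign, and neither passed the threshold of the fit over all genes. ENSDARG00000036107 had 2713, 6847 and 3560 normalized counts in FBSA libraries, against 3444, 1589 and 3107 in controls. The groups overlapped, with FBSA replicate 1 below 2 of the controls, and the log2 fold change was 0.65 ± 0.31 SE. ENSDARG00000070000 had 101, 254 and 162 normalized counts with FBSA, against 409, 211 and 319 in controls. It was lower by its mean, at 172 ± 77.1 against 313 ± 99.2 normalized counts (SD, n = 3 each), with a log2 fold change of −0.90 ± 0.32 SE. Here FBSA replicate 2 lay above control replicate 2 alone, and the other FBSA libraries were below every control.

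**Figure D1:**
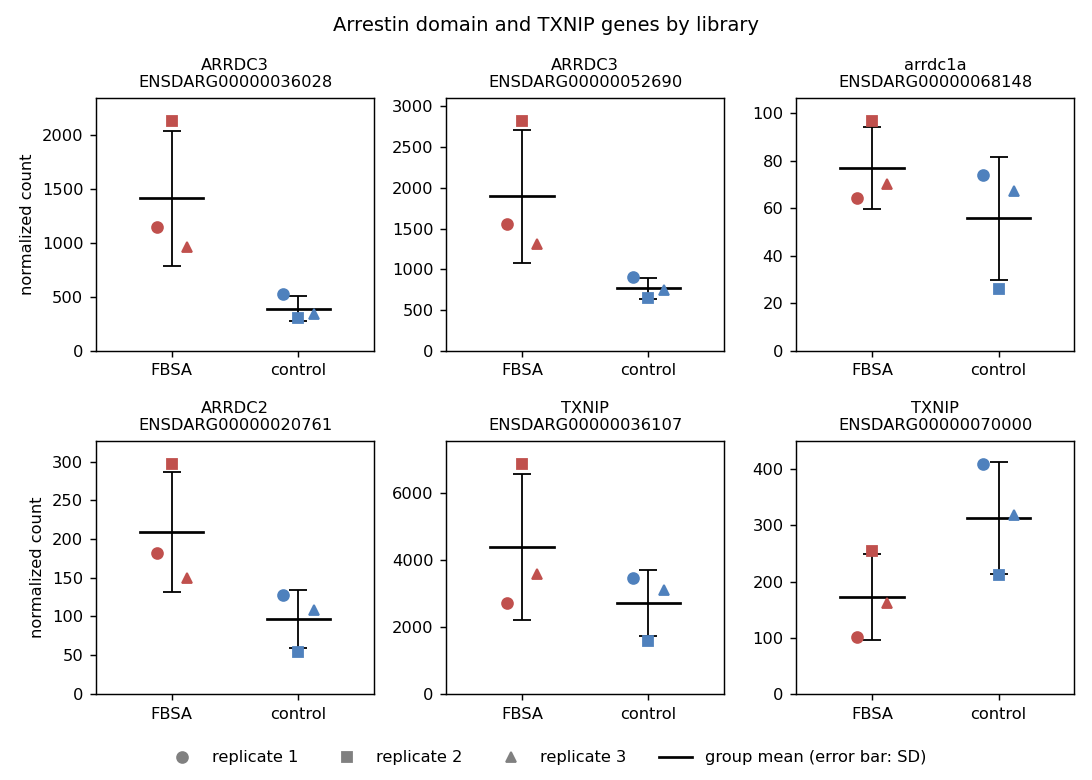
Normalized counts of the 6 tested members in each library, FBSA on the left and control on the right of each panel. Symbols mark the replicate, bars the mean and error bars the SD (n = 3 each). In both ARRDC3 panels and the ARRDC2 panel all FBSA libraries lie above all controls; TXNIP ENSDARG00000070000 is the only panel with a lower FBSA mean.

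Of the 6 tested members, 2 passed the threshold, both higher, and 4 did not (limma, Benjamini-Hochberg adjusted p under 0.05 over all genes tested). Of all genes tested 0.705% passed in either direction, 0.568% higher and 0.136% lower. The 2 were the ARRDC3 pair, whose choice used this contrast, so nothing is read from the count. In 3 of the 6 tested members the FBSA libraries were all above the controls, and in 0 all below, where 10.0% and 9.91% of all genes tested were apart in these ways. These were the ARRDC3 pair, chosen by this difference, and ARRDC2, so nothing is read from this count either. The call of ENSDARG00000036028 was lost under robust moderation. The call of ENSDARG00000052690 was lost under robust moderation, with scaling by total reads, and without control replicate 2, control replicate 3 or FBSA replicate 1, where its log2 fold change was 1.12, 1.23 and 1.34. This gene also did not pass with the replicate number as a block.

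Ratios between the genes of a pair, taken within a library, do not depend on its depth or size factor. They show how evenly a pair shifted, and since reads were not set against transcript length they do not rank the genes by abundance. The TXNIP ratio, ENSDARG00000036107 over ENSDARG00000070000, was 26.8, 26.9 and 22.0 in the FBSA libraries and 8.42, 7.53 and 9.74 in the controls. Its mean was 25.2 ± 2.78 with FBSA and 8.56 ± 1.11 in controls (SD, n = 3 each), 2.95-fold higher. The groups were far apart in this ratio although each TXNIP gene overlapped between them. Both genes were high in FBSA replicate 2 and low in control replicate 2. The ratios were not part of the plan, and how often other gene pairs are apart in this way was not computed. The ARRDC3 ratio, ENSDARG00000036028 over ENSDARG00000052690, was 0.736, 0.755 and 0.735 with FBSA and 0.581, 0.474 and 0.458 in controls. It was 1.47-fold higher by the mean and also apart between the groups. The pair was chosen by the counts that enter this ratio, so its separation is a description. TXNIP reads summed over the pair were 4546 ± 2259 and 3027 ± 1083 normalized counts, and ARRDC3 reads 3307 ± 1442 and 1156 ± 241 (SD, n = 3 each). Reads that match both genes of a pair could shift such ratios. How they were counted was not given, and their part was not tested.

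**Figure D2:**
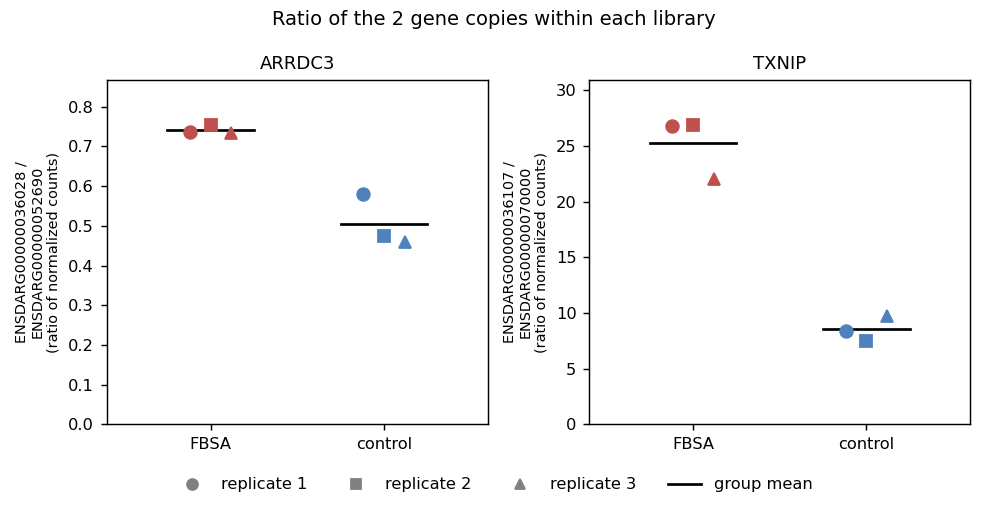
Ratio of the normalized counts of the paired genes in each library, for ARRDC3 (left) and TXNIP (right), with FBSA left of control. The TXNIP ratio lies at 22.0 to 26.9 in FBSA libraries and 7.53 to 9.74 in controls; the ARRDC3 ratio at 0.735 to 0.755 and 0.458 to 0.581.

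Members also shared an order of libraries within each group. In each of the 6 tested members FBSA replicate 2 was the highest FBSA library and control replicate 2 the lowest control. Of all genes tested 16.5% showed this order. It was noticed after the values were seen. On the first principal component over all genes tested (34.3% of the variance), these libraries lay at opposite ends. FBSA replicate 2 was at 54.0 and control replicate 2 at −65.5. All FBSA libraries lay above all controls on this axis. For the ARRDC3 pair, chosen as higher with FBSA, the order is therefore not independent of the choice. FBSA replicate 2 held 2.18 times the mean of the other FBSA libraries for TXNIP ENSDARG00000036107 and 1.44 times for arrdc1a, the other members lying between. Control replicate 2 held 0.371 times the mean of the other controls for arrdc1a and 0.782 times for ARRDC3 ENSDARG00000052690, again with the others between. FBSA replicate 2 also had the lowest summed muscle, neuron, skin and red blood cell markers of all 6 libraries. This did not hold for the other tissues. Its lens markers, at 11150 normalized counts, lay above the 10280 of control replicate 3. Its liver and heart markers, at 106776 and 2385, were the lowest of the FBSA libraries but above every control. Control replicate 2 in turn had the highest summed muscle, neuron, red blood cell and lens markers of all 6 libraries. These were at 293362, 48776, 35472 and 12928 normalized counts. The skin markers of control replicate 2, at 453397, lay between those of other libraries. Its liver and heart markers, at 102538 and 1588, were below every FBSA library.

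**Figure D3:**
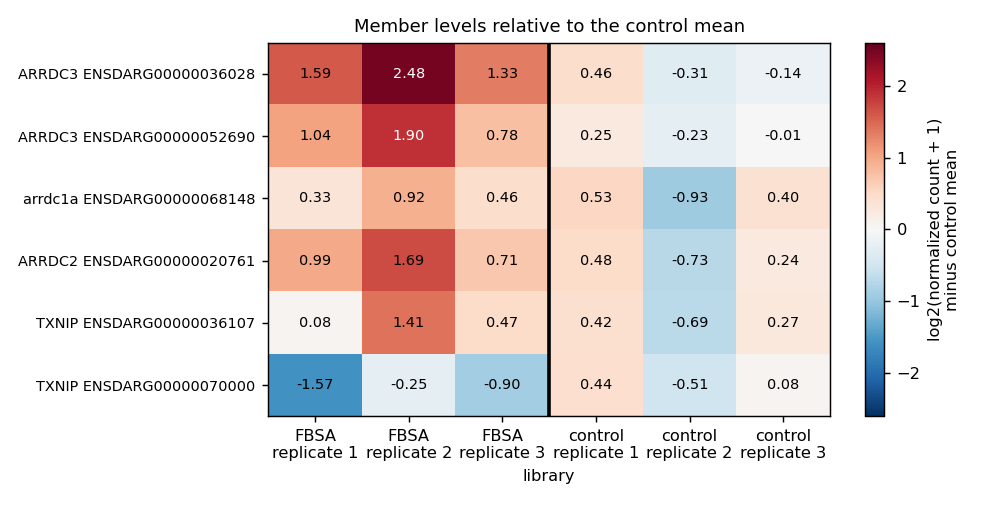
Log2(normalized count + 1) of each tested member in each library, minus the mean of the 3 controls; FBSA libraries stand left of the black line and controls right of it. FBSA replicate 2 is the highest FBSA column and control replicate 2 the lowest control column in every row.

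Leaving out the libraries numbered 2 had to lower the log2 fold change of each tested member, since they are the highest FBSA and the lowest control library, so the values without them are given for their size alone. ENSDARG00000036028 then stood at a log2 fold change of 1.30 ± 0.19 SE and ENSDARG00000052690 at 0.79 ± 0.14 SE. ARRDC2 was at 0.49 ± 0.25 SE, with the groups still apart. TXNIP ENSDARG00000036107 was at −0.07 ± 0.13 SE and arrdc1a at −0.07 ± 0.33 SE. TXNIP ENSDARG00000070000 was at −1.49 ± 0.25 SE, 2.81-fold lower, with the FBSA libraries below the controls. The remaining groups hold 2 libraries each.

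By the root mean square difference of the centred log2 profile over the 6 libraries, ARRDC3 ENSDARG00000052690 ranked 7 of 14613 genes in likeness to ENSDARG00000036028, at 0.301. The pair was chosen by a difference that both profiles hold, so this closeness follows from the choice. ARRDC2 ranked 40, and the TXNIP genes 445 and 14000. The nearest were si:ch211-153b23.4 (0.188), si:ch211-253b8.5 (0.255), SLC2A12 (0.263), which encodes a glucose transporter, and aldh3b1 (0.280), of the aldehyde dehydrogenase family. Nearest to ENSDARG00000052690 were aldh3b1 (0.110), ARG2 (0.133), an arginase gene, arpp21 (0.137) and HSD17B12 (0.139), an enzyme gene of fatty acid elongation. In likeness to ENSDARG00000052690, ENSDARG00000036028 ranked 84, at 0.301, behind ARRDC2 at rank 42. The median over all 14613 genes was 1.02 for the first profile and 0.759 for the second. SLC2A12 had 90.9, 161 and 98.6 normalized counts with FBSA and 47.0, 36.8 and 39.7 in controls, and HSD17B12 1498, 2330 and 1309 against 726, 543 and 768. These genes were found by their likeness to genes that differ between the groups, so their own differences are a description.

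Genes that act with or like the members were read from 8 lists, 128 genes tested in all, each counted once. None passed the threshold in the limma fit over all genes, where 0.705% of genes did, and 0 passed with limma-voom. At an unadjusted p under 0.05 (limma), 21 of the 128 were higher and 9 lower, against 1240 (7.34%) and 1055 of all 16890 genes. Of these list genes the FoxO and fasting-response list held 12 and the glucocorticoid list 6, in either direction. The arrestin and NEDD4-family lists held 0 each. SLC2A12 had the smallest adjusted p (log2 fold change 1.44 ± 0.31 SE, limma adjusted p = 0.0632, higher in 3 of 3 FBSA libraries), and it passed with robust moderation.

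None of the tested partner genes of the alpha-arrestins passed. Among 15 genes of NEDD4-family ligases and their adaptors the median log2 fold change was 0.0026, against −0.0009 for all genes tested. The ligase gene wwp2 had 1392 ± 173 normalized counts with FBSA and 1657 ± 88.5 in controls (SD, n = 3 each; limma adjusted p = 0.378). The median of 18 ESCRT genes, which bud membranes away from the cytosol, was 0.11. Of these pdcd6ip had 4049 ± 202 and 3692 ± 192 (SD, n = 3 each; limma adjusted p = 0.577), and tsg101a, chosen after its values were seen, 103 and 167 as means (limma adjusted p = 0.243). Its paralogue tsg101b went the other way, with means of 263 and 231 (limma adjusted p = 0.658). The 9 arrestin and arrestin-fold genes had a median of 0.0090. Both ARRB2 identifiers, of a beta-arrestin, stayed short of the threshold: ENSDARG00000011545 had 602 ± 32.4 and 510 ± 53.6 normalized counts and ENSDARG00000039215 had 272 ± 145 and 194 ± 111 (SD, n = 3 each; limma adjusted p = 0.486 and 0.68). VPS26A, a retromer gene, had 974 ± 57.7 and 1077 ± 86.2 (SD, n = 3 each; limma adjusted p = 0.641).

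On the TXNIP side, the median log2 fold change was 0.04 over 13 thioredoxin system genes and −0.02 over 11 glucose transporters. TXN, the thioredoxin gene, had 8139 ± 378 normalized counts with FBSA and 7369 ± 370 in controls (SD, n = 3 each; limma adjusted p = 0.526). The glucose transporter gene slc2a3a had 636 ± 72.6 and 825 ± 49.0 (SD, n = 3 each; limma adjusted p = 0.248). SLC2A1 ENSDARG00000007412, of the transporter family member that TXNIP acts on in mammals, had 38.5 ± 9.79 and 25.1 ± 8.26 (SD, n = 3 each; limma adjusted p = 0.553), and its other identifier was too low to test. Over the 20 genes of the list of MondoA, ChREBP and sugar-responsive genes the median was 0.03, with 12 positive values. MLXIP, which encodes MondoA, had 135 ± 20.6 and 110 ± 8.00 (SD, n = 3 each; limma adjusted p = 0.606), and mlxipl, which encodes ChREBP, 8.16 ± 7.13 and 7.80 ± 4.59 (limma adjusted p = 0.89). PFKFB4, a regulator of glycolysis, had 1619 ± 320 and 1250 ± 75.8 (SD, n = 3 each; limma adjusted p = 0.316).

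Hormone and fasting-response lists had the larger medians among the 8, still with 0 genes past the threshold. Their inclusion follows the known response of mammalian TXNIP to fasting and glucocorticoids. Both lists, like the others, were chosen with earlier results of these data known, so their medians and signs are a description. Log2 fold changes were above 0 for 13 of 15 glucocorticoid receptor and target genes (median 0.30) and for 24 of 27 FoxO and fasting-response genes (median 0.47), where 49.8% of all genes tested were above 0. Without the libraries numbered 2 these medians were 0.17 and 0.22, with 12 of 15 and 20 of 26 genes tested above 0. FKBP5, a receptor co-chaperone induced by glucocorticoids, had 167, 239 and 166 normalized counts with FBSA and 152, 75.9 and 55.6 in controls (limma adjusted p = 0.174, higher in 3 of 3 libraries). Control replicate 1 was the control nearest the FBSA libraries, and without it FKBP5 passed, at a log2 fold change of 1.52. NR3C1, the glucocorticoid receptor gene, had 2322 ± 58.4 and 2198 ± 33.5 (SD, n = 3 each; limma adjusted p = 0.765), and GLUL ENSDARG00000100003, a glutamine synthetase gene, 5374 ± 1176 and 4119 ± 46.2 (limma adjusted p = 0.276). The other GLUL identifier, ENSDARG00000099776, had 2989 ± 348 and 2130 ± 237 (limma adjusted p = 0.112, the smallest of the glucocorticoid list). SESN1, a sestrin gene, had 2426 ± 318 and 1916 ± 189 (SD, n = 3 each; limma adjusted p = 0.265). PDK4, a kinase that limits pyruvate use, had 179 ± 16.2 and 172 ± 51.4 (SD, n = 3 each; limma adjusted p = 0.891). IGFBP1 ENSDARG00000099351, of an insulin-like growth factor binding protein and chosen after its values were seen, had 822, 1792 and 893 normalized counts with FBSA and 664, 314 and 646 in controls (limma adjusted p = 0.159). Like the members and 16.5% of all genes tested, it was the highest FBSA library in replicate 2 and the lowest control in replicate 2. Other genes of these 2 lists, such as SESN1 and DUSP1, shared this order, and others, such as NR3C1, did not. The share of list genes with this order was not counted. The paralogue igfbp1b, at low counts, went the other way, with all FBSA libraries below all controls. Its means were 6.46 normalized counts with FBSA and 22.8 in controls (log2 fold change −2.22 ± 0.94 SE, limma adjusted p = 0.329).

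**Figure D4:**
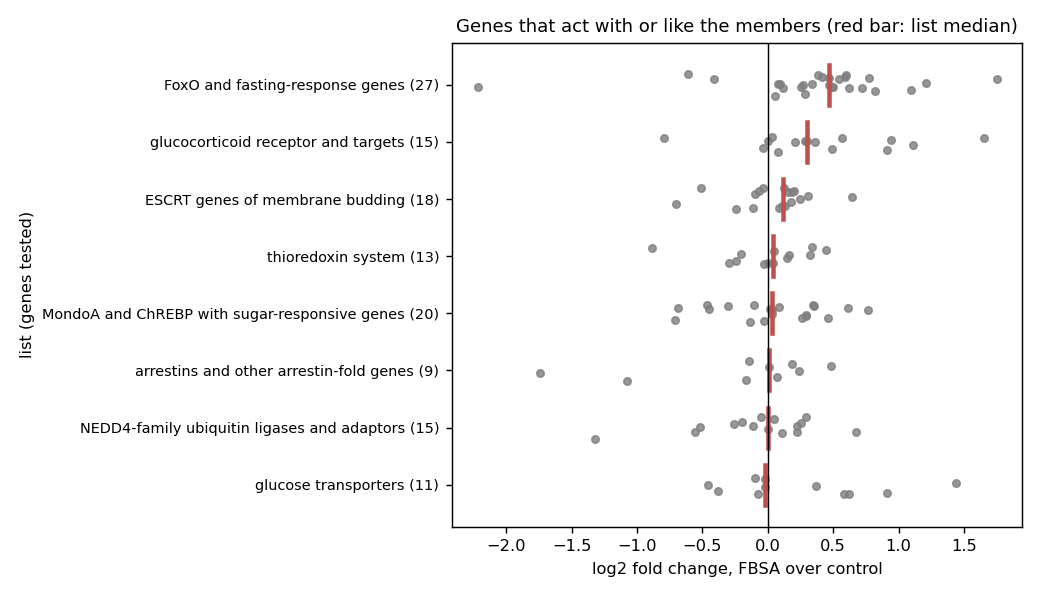
Log2 fold change, FBSA over control, of each tested gene in the 8 lists (grey points), with the list median as a red bar and the number of genes tested in parentheses. The medians run from −0.02 for glucose transporters to 0.47 for FoxO and fasting-response genes, and 0 genes passed the threshold.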

How the data were processed

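The authors deposited log2 values for 24462 Ensembl genes in 6 libraries. Per the submitters' processing notes, STAR, HTSeq, DESeq2 and the build GRCz11 were used. Their versions and filters and the rule for multi-mapping reads are not given in the sources used here. In the table the header names 6 libraries and not the gene column, so names were shifted by 1 cell. All columns shared a floor of 6.52 and followed the formula of a variance-stabilising transformation, whose inverse returned whole reads over 1 size factor per library (100.0% of values above the floor within 0.1 of a whole number). The test used log2(normalized count + 1).

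Genes reaching 10 normalized counts in 3 libraries or more (16890) were fitted with limma 3.58.1 in R 4.3.3 (group as the only term, trend, two-sided), with Benjamini-Hochberg adjustment and a threshold of 0.05. Recovery and fit were tested on simulated data. Fold changes understate low genes. Python 3.11.15, pandas 2.3.3 and matplotlib 3.10.9 did the rest. Symbols came from a gene name table; of 148 list entries, 10 were not matched, and a stem match can add a paralogue. The members and lists were chosen with earlier results of these data known. Members got no p-value. List genes named were those past the threshold, otherwise the one with the highest mean; mlxipl, mlxip, arrb2b, slc2a1a, nr3c1, fkbp5 and pdk4 in all cases; and the 4 nearest profiles (mean of 20 or more) of each ARRDC3 gene. Another list is not reported here. No sequences or coordinates were used. Alternatives covered pseudocount, filter, scaling, moderation, tool and each library left out.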

Additional observations from a re-analysis of the deposited data

How the results depend on the processing

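The 17 alternatives left the sign of both ARRDC3 differences and of ARRDC2 and TXNIP ENSDARG00000070000 as reported. Leaving out 1 library at a time gave log2 fold changes of 1.46 to 2.04 for ARRDC3 ENSDARG00000036028, 0.91 to 1.47 for ENSDARG00000052690, 0.77 to 1.37 for ARRDC2, 0.27 to 0.94 for TXNIP ENSDARG00000036107, −1.23 to −0.57 for ENSDARG00000070000 and 0.11 to 0.84 for arrdc1a. Genes past the threshold over all genes, 119 in the main fit, then numbered 49 to 99. Those higher numbered 46 to 84, against 96 in the main fit, and those lower 3 to 23, against 23. Whether the same genes passed was not counted. The members past the threshold numbered 1 to 2 and the list genes 0 to 1 (FKBP5 without control replicate 1). Members past the threshold were 1 with total reads as scaling and 0 with robust moderation, where 1 list gene, SLC2A12, passed. On the deposited log2 scale the TXNIP genes differed by 1.17 in log2 fold change and the ARRDC3 genes by 0.38, against 1.56 and 0.56 in the main values. With the replicate number as a block, 47 genes passed (40 higher, 7 lower), among them 1 member, ENSDARG00000036028, while ENSDARG00000052690 did not pass. The labels do not say whether the numbers pair the libraries, and the values showed no sign of it. Deviations of same-numbered FBSA and control libraries correlated at 0.02, −0.14 and −0.005. No library correlated best with its own number. The fit without both libraries numbered 2 was chosen after seeing the data, and had to lower every tested member; it called 141 genes and 3 members, the third being TXNIP ENSDARG00000070000, and put arrdc1a and TXNIP ENSDARG00000036107 at −0.07. Read without the header shift, control replicate 3 would carry an FBSA name; without it ENSDARG00000036028 passed and ENSDARG00000052690 did not. The causes of these shifts were not tested. Low counts limit what can be read for ARRDC1 and mlxipl.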
